A study of Rattus norvegicus with 30 samples.

Results

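The genes described here were 10 mediators of the p53 response and of mitochondrial apoptosis, taken by their symbols from the 21993 genes that the tables of the series list. They were the p53 targets *Cdkn1a*, *Mdm2* and *Gdf15*, the BH3-only genes *Bbc3*, *Pmaip1* and *Bcl2l11*, the effector gene *Bax*, and the anti-apoptotic genes *Bcl2*, *Bcl2l1* and *Mcl1*. All 10 were listed as protein coding. RNA-seq was performed on primary hippocampal neurons of wild-type Wistar rats, prepared on embryonic day 18 and kept in culture for 7 days. Cultures received 30 µM dimethyl fumarate (DMF) or 30 µM monomethyl fumarate (MMF) with DMSO as vehicle, or 6 µM cannabidiol (CBD) with ethanol (EtOH) as vehicle, for 4 or 24 h. Each vehicle alone, at 0.2% as in the drug groups, gave the controls at both times, so that there were 10 groups of 3 libraries, 1 from each of 3 independent experiments. DMF and MMF are fumaric acid esters, with MMF carrying a free acid group in place of a methyl ester of DMF, and CBD is a cannabinoid of the hemp plant. Here "experiment" means the replicate number in the labels.

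p53 is a transcription factor that accumulates after DNA damage and other stress and switches on genes that stop the cell cycle, limit p53 itself or prepare apoptosis. The Bcl2 family then sets whether the outer mitochondrial membrane is opened: BH3-only proteins neutralise the anti-apoptotic members or activate Bax, and Bax forms the pores. In cultured neurons, the BH3-only proteins Puma (*Bbc3*) and Bim (*Bcl2l11*) are known for their part in death after DNA damage or loss of trophic support.

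The upstream sequences of 4 of these genes are shown as examples. *Cdkn1a*, *Mdm2* and *Bcl2l11* were higher with DMF than with DMSO at 24 h, as described further on. *Bcl2* was not called in any comparison without the pairing of experiments. *Pmaip1*, also higher with DMF at 24 h, is not shown, and its window held no match. *Bcl2l1* and *Mcl1*, which limma did not call without the pairing either, are also not shown. Each sequence shown is the stretch of 250 bases just before the RefSeq start site on the GRCr8 build, read 5′ to 3′ on the strand of the gene. GRCr8 is not the build of the deposited tables, mRatBN7.2. Capitals mark matches, on either strand, to the antioxidant response element TGACNNNGC, to the ATF4 and CHOP composite element TGATGNAA, or to the 10-base p53 decamer.
Cdkn1a (chr20:7150682-7150931, + strand): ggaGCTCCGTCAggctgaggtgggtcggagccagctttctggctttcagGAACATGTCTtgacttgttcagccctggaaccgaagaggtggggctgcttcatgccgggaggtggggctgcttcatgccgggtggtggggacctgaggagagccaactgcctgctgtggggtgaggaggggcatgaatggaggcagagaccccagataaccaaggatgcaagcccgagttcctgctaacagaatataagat
Mdm2 (chr7:55200792-55201041, - strand): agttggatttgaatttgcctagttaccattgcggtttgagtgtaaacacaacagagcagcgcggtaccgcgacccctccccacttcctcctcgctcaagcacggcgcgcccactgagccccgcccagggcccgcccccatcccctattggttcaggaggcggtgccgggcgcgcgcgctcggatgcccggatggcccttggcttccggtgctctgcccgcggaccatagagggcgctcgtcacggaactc
Bcl2l11 (chr3:135819792-135820041, + strand): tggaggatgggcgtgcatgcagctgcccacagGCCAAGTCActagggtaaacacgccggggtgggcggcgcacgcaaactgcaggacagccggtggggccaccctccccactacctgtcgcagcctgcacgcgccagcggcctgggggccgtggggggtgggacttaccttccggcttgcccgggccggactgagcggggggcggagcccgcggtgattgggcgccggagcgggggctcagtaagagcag
Bcl2 (chr13:23366901-23367150, - strand): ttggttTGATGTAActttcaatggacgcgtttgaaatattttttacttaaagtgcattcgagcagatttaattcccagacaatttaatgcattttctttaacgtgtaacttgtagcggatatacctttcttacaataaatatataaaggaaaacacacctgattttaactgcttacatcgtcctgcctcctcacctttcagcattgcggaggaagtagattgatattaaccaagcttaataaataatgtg

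RefSeq promoters were found for 8 of the 10 genes, with 12 start sites in all. *Cdkn1a* held the p53 decamer from 201 to 192 bases before its start, the only such match among the 12 windows, and 6.64% of all 33469 promoters held it. The antioxidant response element was matched in *Cdkn1a*, in *Bcl2l11* and at a start site each of *Bcl2l1* and *Gdf15*, against 10.1% of all promoters. The ATF4 and CHOP element was matched in *Bcl2* and at 3 of the 4 start sites of *Bcl2l1*, against 3.4% of all promoters. The windows of start sites 2 and 4 of *Bcl2l1* overlap, and their matches are the same stretch of bases, counted once for each window. The *Mdm2* window held none of these letters, and no window of the 10 genes held 2 exact decamers within 13 bases of each other. Decamers with a mismatch and sites outside the windows were not searched, so these results do not show that p53 sites are absent. The matches overlapped no other motif searched, and they are descriptions of letters and not of bound sites.

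Between 15108132 and 25367834 reads lay on genes in each library. The defining neuronal genes were well expressed, since the 8 neuronal markers summed to between 3421.8 and 4967.6 CPM (reads on a gene scaled to an equal total of reads on all genes), and the 6 microglial markers summed to at most 6.63 CPM. Astrocyte markers were also high, at 1739.3 to 4689.9 CPM in sum, and in every group experiment 3 held the lowest astrocyte sum, 2717.2 CPM or less against 2992 CPM or more in the other experiments. In bulk RNA, fewer cells of a type and less RNA per cell cannot be told apart. The levels below are either CPM or the deposited normalised counts, which are reads divided by a size factor per library within each table of 6 libraries and can be compared only within that table.

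The group means of *Cdkn1a*, *Bbc3*, *Pmaip1* and *Gdf15* were highest with DMF and CBD at 24 h. For *Bcl2l11*, DMF at 24 h came first and CBD at 24 h had rank 6 (13.8 CPM). In experiment 1 of CBD at 24 h, the first 4 genes had 19.4, 21.6, 2.01 and 0.182 CPM. The EtOH means at 24 h were 22.1, 20.5, 3.23 and 0.12 CPM. *Cdkn1a*, which encodes the cyclin-dependent kinase inhibitor p21, had a mean of 63.9 ± 13.3 CPM (SD, n = 3) with DMF at 24 h, followed by 42.6 ± 28.2 CPM with CBD at 24 h and 26.4 ± 8.18 CPM with DMF at 4 h. The other 7 groups lay between 17 and 22.1 CPM. No neighbours in this order differed by more than the larger of their SDs. *Gdf15*, which encodes a secreted stress cytokine, had its highest means with CBD at 24 h (3.32 ± 3.62 CPM), DMF at 24 h (1.9 ± 2.54 CPM) and DMF at 4 h (0.986 ± 0.253 CPM). Of its neighbours, only DMF at 4 h and the next group, CBD at 4 h (0.418 ± 0.21 CPM), differed by more than the larger SD. The anti-apoptotic genes were the steadiest: the highest group mean was 1.19 times the lowest for *Bcl2*, 1.16 times for *Bcl2l1* and 1.15 times for *Mcl1*, compared with 3.76 times for *Cdkn1a*, 2.18 times for *Pmaip1*, 2.16 times for *Bbc3* and 1.82 times for *Bcl2l11*. Without DMF and CBD at 24 h, that ratio was 1.55 for *Cdkn1a*, 1.73 for *Pmaip1*, 1.33 for *Bbc3* and 1.37 for *Bcl2l11*. For *Mdm2* it was 1.32 with or without these groups, and for *Bax* 1.36 with and 1.23 without them.

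**Figure D1:**
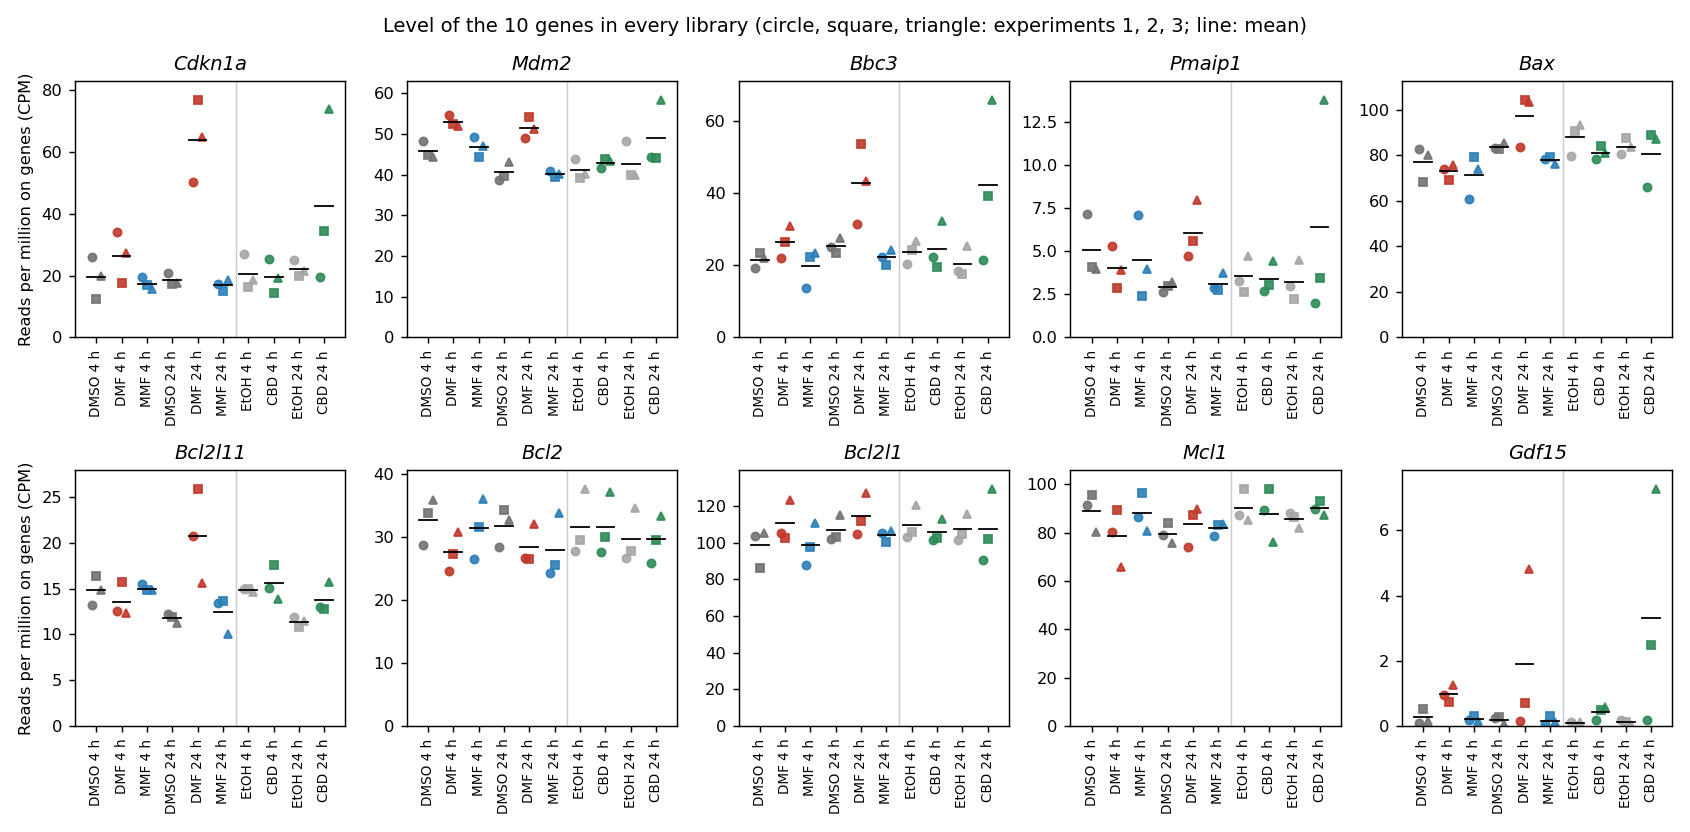
Level in CPM (reads scaled to an equal total on genes, linear axes from 0, a separate scale for each gene) in all 30 libraries, with 1 panel per gene, the groups along the x axis, 1 symbol per experiment and a line at the group mean. *Cdkn1a* with DMF at 24 h sat between 50.2 and 76.8 CPM, above every vehicle library, while the CBD libraries at 24 h spread from 19.4 to 74 CPM.

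Treatment with DMF for 24 h gave the clearest response. Differences were tested with limma on log2(normalised count + 1), and a log2FC is on that scale. Benjamini-Hochberg adjustment was over all tested genes, with a threshold of 0.05. Calls leave out the pairing of experiments unless a replicate block is named. Of the 10 genes, 9 had enough reads to be tested, and 4 were higher with DMF: *Cdkn1a*, *Mdm2*, *Pmaip1* and *Bcl2l11*. None was lower. Over all 13967 genes tested, 1.88% were higher and 3.97% were called in either direction. The 10 genes were chosen with earlier results of these data known, so the counts beside these shares are a description. With the experiment as a replicate block, *Bbc3* was called as well, which made 5 of 9, against 5.81% of all genes higher. The groups did not overlap for these 5 genes, with the DMF libraries above, as for 11.3% of all genes.

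*Cdkn1a* (chromosome 20, 7149217 to 7159585, mRatBN7.2) had normalised counts of 927.4, 1422.2 and 1193.4 with DMF and 386.8, 320 and 325.7 with DMSO, in experiments 1, 2 and 3. Every DMF library was above every DMSO library, and the means differed 3.43-fold. The log2FC was 1.76 (SE 0.149, limma adjusted p = 6.38e-04). *Cdkn1a* was called with each of the 6 libraries left out in turn, with a log2FC between 1.62 and 1.92. It was the only one of the 10 genes called in all 6 of these fits, since without any of the 3 DMSO libraries, or without the DMF library of experiment 2, 1 gene was called.

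*Mdm2* (chromosome 7, 53290664 to 53314915), the ubiquitin ligase that degrades p53 and is itself a p53 target, had normalised counts of 902.8, 1000.6 and 946.1 with DMF and 714.8, 727.9 and 795.5 with DMSO. The shift was small but the groups did not overlap (log2FC 0.35, SE 0.076, limma adjusted p = 0.0391). With a library left out it was called in 1 of 6 fits, with a log2FC of 0.31 to 0.40.

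All 3 BH3-only genes had higher counts with DMF at 24 h in every experiment. *Pmaip1* (chromosome 18, 59986017 to 59992429), which encodes Noxa, an antagonist of Mcl1, had 87.1, 103.2 and 147.2 normalised counts with DMF and 49, 54.6 and 59.7 with DMSO. The DMF libraries were about 2.07 times as high on average (log2FC 1.00, SE 0.213, limma adjusted p = 0.0358). *Bcl2l11* (chromosome 3, 115366646 to 115404068), which encodes Bim, had 382.2, 479.1 and 288.3 normalised counts with DMF and 225.6, 219.3 and 206.3 with DMSO. The DMF libraries varied more among themselves than the DMSO libraries, yet the lowest of them was above all DMSO libraries (log2FC 0.79, SE 0.168, limma adjusted p = 0.0368). With a library left out, *Pmaip1* was called in 2 and *Bcl2l11* in 1 of the 6 fits. With the spread taken from all 30 libraries *Pmaip1* was not called (limma adjusted p = 0.286).

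*Bbc3* (chromosome 1, 77014543 to 77022509), which encodes Puma, had 579, 994.1 and 798.1 normalised counts with DMF and 464.2, 431.8 and 508.4 with DMSO. The groups did not overlap, with a log2FC of 0.72 (SE 0.172) and a limma adjusted p of 0.0563, which missed the threshold. The limma adjusted p was 0.00648 with the replicate block, 0.0458 with no filter on low counts and 0.166 with the spread from all 30 libraries. Without the block DESeq2 (adjusted p = 4.68e-04) and edgeR (0.0452) called it as well. *Bax* (chromosome 1, 95938808 to 95945368), the pore-forming effector, had 1545.4, 1930.6 and 1907.3 normalised counts with DMF and 1541.9, 1520.6 and 1574.9 with DMSO. The DMF library of experiment 1 lay among the DMSO libraries, and *Bax* was not called (log2FC 0.21, limma adjusted p = 0.274, and 0.0848 with the block).

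None of the 3 anti-apoptotic genes was called with DMF at 24 h. *Bcl2* (chromosome 13, 22684989 to 22853743) had means of 523.8 ± 56.9 normalised counts with DMF and 584.9 ± 54.4 with DMSO (SD, n = 3), and the 95% interval of its log2FC ran from -0.40 to 0.08. *Bcl2l1* (chromosome 3, 141253523 to 141303479), which encodes Bcl-xL, had means of 2116.9 ± 210.2 and 1969.7 ± 135, with an interval from -0.09 to 0.30. *Mcl1* (chromosome 2, 183219220 to 183222303), the partner of Noxa, had means of 1544.9 ± 158.1 and 1465.7 ± 73.3, with an interval from -0.12 to 0.27. The groups overlapped for all 3 genes.

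*Gdf15* (chromosome 16, 18805239 to 18808055) had too few reads to be tested with DMF at 24 h. It had 3, 12 and 117 reads with DMF in experiments 1, 2 and 3, against 4, 6 and 1 with DMSO. The library of experiment 3 was far above all others, that of experiment 2 was above the DMSO libraries, and that of experiment 1 was among them.

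Other transcripts moved at the same time. All 6 markers of dividing cells fell with DMF at 24 h, their sum lying between 84.9 and 99.8 CPM against 199.9 to 217 CPM with DMSO. Of the 5 markers of the oligodendrocyte lineage, 3 fell (*Pdgfra*, *Cspg4* and *Sox10*), with sums of 552.4 to 715.8 against 713.5 to 857.8 CPM. Of the 6 astrocyte markers 1 fell, *Aldh1l1*, and with the block 3 fell and 1 rose, the latter being *Gfap*. Their sum was higher with DMF in each experiment, at 4305, 4689.9 and 2717.2 CPM against 3352.5, 3939.9 and 2325.9 CPM in experiments 1, 2 and 3. None of the 8 neuronal markers was called, 2 fell with the block, and their sums were 3576 to 4343.7 against 4312.1 to 4693.6 CPM. The part of these changes in the results for the 10 genes was not tested.

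**Figure D2:**
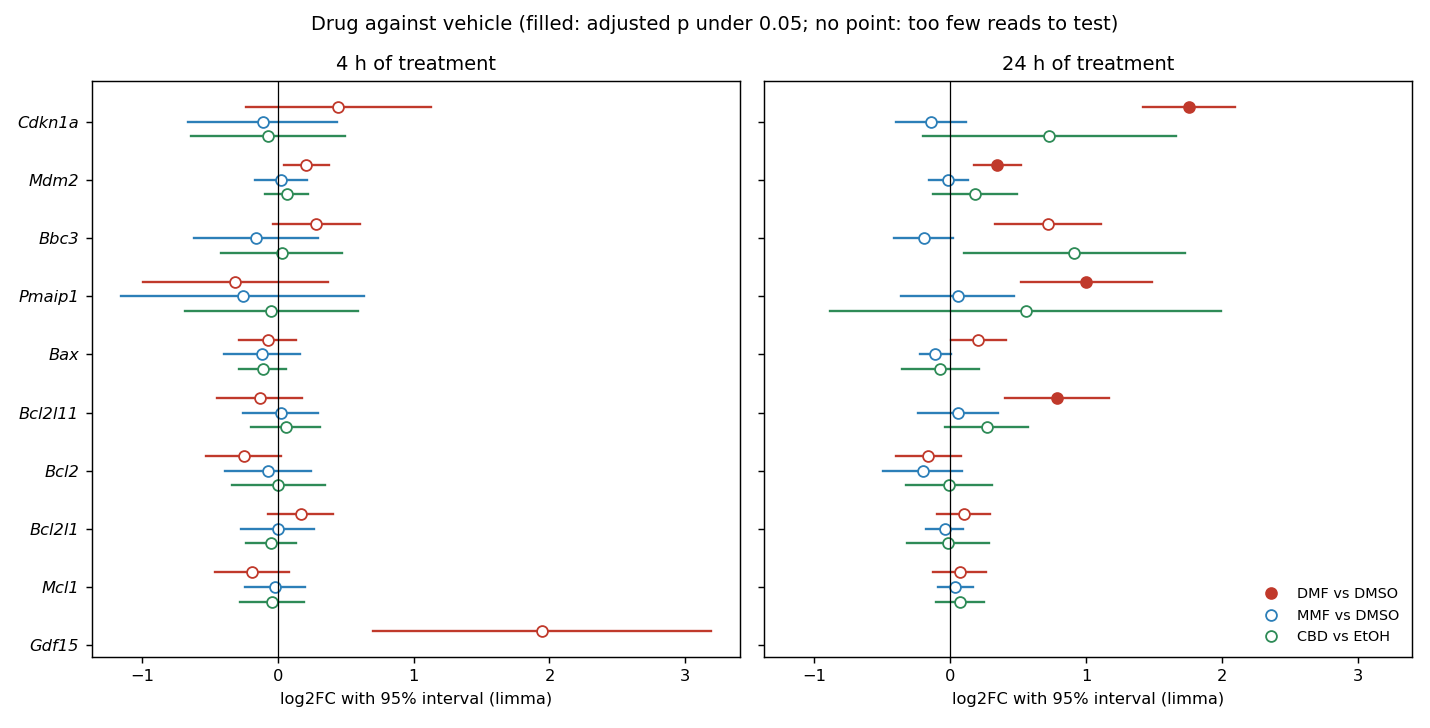
log2FC of each drug against its vehicle (x axis) for the 10 genes (y axis) at 4 and 24 h. Points are limma estimates and bars are 95% intervals. Filled points mark an adjusted p under 0.05 in the limma fit without the replicate block. With DMF at 24 h the filled points are *Cdkn1a* (1.76), *Mdm2* (0.35), *Pmaip1* (1.00) and *Bcl2l11* (0.79), while no point of MMF or CBD is filled.

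After 4 h of DMF, none of the 10 genes was called by limma without the replicate block, against 3.41% of all 14208 genes tested. At an unadjusted p under 0.05 there were 2 (*Mdm2* and *Gdf15*), against 20.1% of all genes, and DESeq2 and edgeR's quasi-likelihood test also called 0. With the replicate block, which compares each drug library with the vehicle library of its own experiment, 7 of the 10 were called, against 23% of all genes. Of these, *Cdkn1a*, *Mdm2*, *Bbc3*, *Bcl2l1* and *Gdf15* were higher and *Bcl2* and *Mcl1* lower with DMF; edgeR with the same block also called 7. *Gdf15* reached the filter on low counts only through its DMF libraries, so its call carries no weight, and 6 of the other 9 genes were called.

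*Cdkn1a* had 678.9, 353.6 and 550.4 normalised counts with DMF and 519, 250.2 and 402.1 with DMSO at 4 h. The groups overlapped because experiment 1 was high and experiment 2 low in both, but within each experiment DMF was higher, with log2 ratios of 0.39, 0.50 and 0.45. The log2FC was 0.45 (limma adjusted p = 0.464, and 0.00145 with the block). *Mdm2* had 1093.9, 1046.7 and 1042.3 normalised counts against 965.6, 896.7 and 891.9. Its groups did not overlap, as for 26.3% of all genes in either direction (log2FC 0.21, limma adjusted p = 0.152, and 0.0237 with the block).

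*Gdf15* had 18, 19 and 27 reads with DMF at 4 h and 2, 9 and 3 with DMSO. The DMF libraries were all above the DMSO libraries, with a log2FC of 1.94 (SE 0.544). Since only the DMF libraries brought this gene past the filter, the values are given as a description; with no filter on any gene the limma adjusted p was 0.103. *Bbc3* had log2 ratios of 0.19, 0.17 and 0.49 within the experiments (log2FC 0.28, limma adjusted p with the block 0.0309).

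The genes of the anti-apoptotic group did not share a direction at 4 h. *Bcl2* had 489.1, 544.5 and 617.2 normalised counts with DMF and 573.4, 673.4 and 719.9 with DMSO. It was lower in each experiment by a similar amount (log2FC -0.25, limma adjusted p = 0.294, and 0.0226 with the block). *Mcl1* was also lower in each experiment (log2FC -0.19, limma adjusted p with the block 0.0259), and *Bcl2l1* was higher in each (log2FC 0.17, limma adjusted p with the block 0.0489). *Pmaip1*, *Bax* and *Bcl2l11* were not called in either fit, with log2FCs of -0.32, -0.08 and -0.13. Of the markers of other cells, 0 were called at 4 h without the block, and of the 8 neuronal markers *Tubb3* fell; with the block 4 of 6 markers of dividing cells rose, with sums of 259.5 to 324.5 CPM against 225.6 to 292.3 CPM with DMSO, 2 of 5 of the oligodendrocyte lineage, 1 of 6 of astrocytes and 1 of 4 of vessels and fibroblasts fell, and of the 8 neuronal markers 1 rose and 2 fell. Their part in the result was not tested.

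The effect of DMF differed between the times for *Bcl2l11*. Its counts were 252, 312.9 and 247.8 with DMF and 264.3, 327.4 and 298.4 with DMSO at 4 h, lower with DMF in each experiment, whereas DMF was higher in each at 24 h. The difference of the log2FCs, 24 h minus 4 h, came to 0.92 with an SE of 0.230, and limma over the 12 libraries gave it an adjusted p of 0.0431. *Bcl2l11* was the only one of the 10 genes called for this difference, against 4.12% of all 14432 genes. With a library left out it was called in 3 of 12 fits, those without the DMF library of experiment 3 at 24 h, of experiment 2 at 4 h or the DMSO library of experiment 1 at 4 h, and otherwise its limma adjusted p lay between 0.0763 and 0.0966. With no filter on low counts it missed the threshold (limma adjusted p = 0.0551). With the block 3 genes were called, against 13.2% of all: *Bcl2l11*, *Cdkn1a* (difference 1.31, limma adjusted p = 0.0713 without and 0.0119 with the block) and *Pmaip1* (1.32, 0.0809 and 0.0235).

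Within the DMF libraries, 3 of the 10 genes were higher at 24 h than at 4 h, against 7.59% of all 14283 genes higher and 15.5% called in either direction. *Cdkn1a* had 1031.8, 1579.9 and 1330.7 normalised counts at 24 h and 698.5, 363.4 and 563.3 at 4 h. All libraries at 24 h were above all at 4 h (log2FC 1.31, limma adjusted p = 0.00863), and *Cdkn1a* was called with each of the 6 libraries left out. *Bbc3* (log2FC 0.68, limma adjusted p = 0.0484) and *Bax* (log2FC 0.41, limma adjusted p = 0.0267) were called too, each in 2 of the 6 fits with a library left out; both were lost without the DMF library of experiment 2 or 3 at 24 h or that of experiment 1 or 2 at 4 h. With the spread from all 30 libraries *Bbc3* was not called (limma adjusted p = 0.0854). With the block 4 genes were called, against 32.3% of all in either direction, *Bcl2l11* being added (log2FC 0.59, limma adjusted p = 0.0618 without and 0.00231 with the block). In the DMSO, EtOH, MMF and CBD libraries limma called 0 of the 10 genes between the times, with and without the block, as did DESeq2 and edgeR; at an unadjusted p under 0.05 there were 3 with DMSO (*Mdm2*, *Pmaip1* and *Bcl2l11*) against 9.75% of all genes, 1 with EtOH (*Bcl2l11*) against 2.76%, 1 with MMF (*Mdm2*) against 10.5% and 0 with CBD against 6.98%. Over all genes limma called 0% in each of these 4 comparisons without the block, and with it 1.47% with DMSO, 1.05% with EtOH, 1.82% with MMF and 0.0142% with CBD. These comparisons use the same libraries as those against vehicle. *Mdm2*, *Pmaip1* and *Bcl2l11* were lower with DMSO at 24 h than at 4 h. Their means were 40.5, 2.95 and 11.8 CPM at 24 h against 45.9, 5.09 and 14.8 CPM at 4 h. With DMF these means were 51.4, 6.09 and 20.7 CPM at 24 h against 53, 4.05 and 13.5 CPM at 4 h. *Bcl2l11* with EtOH and *Mdm2* with MMF were also lower at 24 h. The part of the change in DMSO in the results for DMF was not tested.

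MMF at the same dose gave no called change in these genes. At 4 h limma called 0 of 9 genes, against 0% of all 14032 genes tested, and at 24 h 0 of 9, against 0.00707% of all 14137. At an unadjusted p under 0.05 there were 0 at either time, against 0.257% of all genes at 4 h and 4.43% at 24 h, and DESeq2, edgeR and both fits with the block called 0 as well, limma with the block calling 0% of all genes at 4 h and 1.38% at 24 h. The log2FCs lay between -0.26 and 0.02 at 4 h and between -0.20 and 0.06 at 24 h. *Cdkn1a* had 335.6, 287.7 and 361.1 normalised counts with MMF at 24 h and 407, 336.1 and 342 with DMSO. The groups overlapped, and the 95% interval of the log2FC ran from -0.40 to 0.12. *Bax* was the only gene of the 10 whose groups did not overlap with MMF at 24 h, as for 9.73% of all genes in either direction, with 1521.2, 1538 and 1464.1 normalised counts below 1622.2, 1597.3 and 1654.1 with DMSO (log2FC -0.11, limma adjusted p = 0.952). *Gdf15* had 1 to 7 reads in the MMF libraries and 1 to 9 with DMSO. The effect of MMF was not called as different between the times for any of 9 genes, against 0% of all 14413, with 0 at an unadjusted p under 0.05 and 0 by DESeq2, edgeR and with the block.

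Set directly against MMF at the matched dose of 30 µM, DMF gave higher levels of 3 of the 9 tested genes at 24 h, against 1.43% of all 14233 genes higher and 3.56% in either direction. *Cdkn1a* had 1025.1, 1572.1 and 1317.1 normalised counts with DMF and 354, 302.3 and 380.1 with MMF, a 3.78-fold difference of the means without overlap (log2FC 1.90, SE 0.154, limma adjusted p = 5.11e-04). *Mdm2* had a log2FC of 0.36 (limma adjusted p = 0.0297). *Bbc3* had 640, 1098.9 and 880.8 against 456.2, 407 and 495.1 (log2FC 0.92, limma adjusted p = 0.029, and 0.0589 with the spread from all 30 libraries).

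With the block 6 of the 9 genes were called between DMF and MMF at 24 h, against 12.2% of all, with *Pmaip1*, *Bax* and *Bcl2l11* added. The limma adjusted p of *Pmaip1* was 0.0613 without and 0.00394 with the block. That of *Bcl2l11* was 0.0909 without and 0.00151 with the block. *Bax* had 1708.1, 2134.1 and 2105 normalised counts with DMF and 1604.4, 1616.3 and 1541 with MMF (log2FC 0.31, limma adjusted p = 0.117, and 0.0249 with the block). *Cdkn1a* alone was called in all 6 fits with a library left out, and the count fell to 1 gene without the DMF library of experiment 2 or the MMF library of experiment 1 or 2. The compounds were not shown to differ for *Bcl2* (95% interval of the log2FC from -0.27 to 0.35), *Bcl2l1* (-0.04 to 0.32) and *Mcl1* (-0.16 to 0.22).

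At 4 h limma called 0 of the 10 genes between DMF and MMF, against 1.61% of all 14200, with 3 at an unadjusted p under 0.05 (*Cdkn1a*, *Mdm2* and *Gdf15*), against 17.4% of all genes. *Gdf15* had 19.1, 14.7 and 24.8 normalised counts with DMF and 3.85, 5.99 and 3.38 with MMF. It again passed the filter through the DMF libraries alone, so that its call by DESeq2 and edgeR, which called 0 of the other 9 genes, is no support for a difference; with no filter the limma adjusted p was 0.06. With the block 5 genes were called, against 23.6% of all, or 4 of the 9 other than *Gdf15*. Of these 4, *Cdkn1a*, *Bbc3* and *Bcl2l1* were higher and *Mcl1* was lower with DMF. Their limma adjusted p with the block was 0.00277, 0.0024, 0.0498 and 0.047, in that order. The MMF and DMF libraries were compared as 1 pair of compounds at 2 times, with p-values adjusted over all genes at each time.

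CBD did not give a called change either, but its libraries at 24 h differed widely from each other. At 4 h limma called 0 of 9 genes, against 0.00705% of all 14193, and at 24 h 0 of 9, against 0.114% of all 14079. At an unadjusted p under 0.05 there was *Bbc3* at 24 h, against 9.83% of all genes, and none at 4 h, against 3.97%, and DESeq2, edgeR and both fits with the block called 0 at both times, limma with the block calling 2.33% of all genes at 4 h and 0.504% at 24 h. The log2FCs at 4 h lay between -0.110 and 0.065, and *Gdf15* then had 4, 10 and 10 reads with CBD and 3, 0 and 2 with EtOH. *Cdkn1a* had 365.5, 651.7 and 1398.3 normalised counts with CBD at 24 h in experiments 1, 2 and 3, and 473.3, 377.6 and 407.1 with EtOH. The CBD library of experiment 1 was below all EtOH libraries and the other CBD libraries were above them, so that the mean log2FC of 0.73 had a 95% interval from -0.20 to 1.66 (limma adjusted p = 0.594).

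*Bbc3* and *Pmaip1* had the same order of CBD libraries at 24 h as *Cdkn1a*. *Bbc3* had 406.7, 741 and 1245.2 normalised counts with CBD and 346.4, 336.3 and 479.5 with EtOH (log2FC 0.91, limma adjusted p = 0.475). *Pmaip1* had 37.8, 65.6 and 261.2 with CBD and 56.1, 42.5 and 85 with EtOH (log2FC 0.56, limma adjusted p = 0.79). The groups overlapped for both genes, with the library of experiment 1 in or below the EtOH range and that of experiment 3 far above it.

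*Bcl2l11* was the only tested gene of the 10 whose groups did not overlap with CBD at 24 h, as for 15.9% of all genes in either direction, with 245.2, 242 and 296.6 normalised counts above 225.1, 204.4 and 218 (log2FC 0.27, limma adjusted p = 0.548). *Gdf15* had 3, 44 and 159 reads with CBD and 4, 2 and 1 with EtOH, and too few libraries held enough reads for a test. With no filter its limma adjusted p was 0.456. Its reads were enough for the filter once the CBD library of experiment 1, the low one, was left out, so that fit is not read for this gene; it called 0 of the other 9. Without the CBD library of experiment 3 the log2FC of *Cdkn1a* was 0.23 and that of *Pmaip1* was -0.23, and without that of experiment 1 they were 1.19 and 1.15, none of them called.

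The other genes tested with CBD at 24 h had log2FCs of 0.18 for *Mdm2*, -0.07 for *Bax*, -0.01 for *Bcl2*, -0.02 for *Bcl2l1* and 0.07 for *Mcl1*. The effect of CBD was not called as different between the times for any of 10 genes, against 0% of all 14503 and 0.0552% with the block, with 0 at an unadjusted p under 0.05 and 0 by DESeq2 and edgeR.

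The CBD library of experiment 3 also stood apart in related lists. The 8 listed genes of the ATF4 and CHOP stress response summed to 367.5, 593 and 1173.1 CPM with CBD at 24 h in experiments 1, 2 and 3, against 412.5 to 417.3 CPM with EtOH. The 32 further genes of the p53 pathway summed to 1161.2, 1277.1 and 1627 CPM against 1126.9 to 1202.7 CPM. Of the astrocyte markers, whose sums were 4236.2, 3693.1 and 1899.2 CPM against 4025.3, 4000.9 and 2428.6 CPM, 0 of 6 were called, and of the neuronal markers 1 of 8, *Gad1*, fell, with sums of 3881.9 to 4130.1 against 4207.2 to 4967.6 CPM. Their part in the result was not tested.

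**Figure D3:**
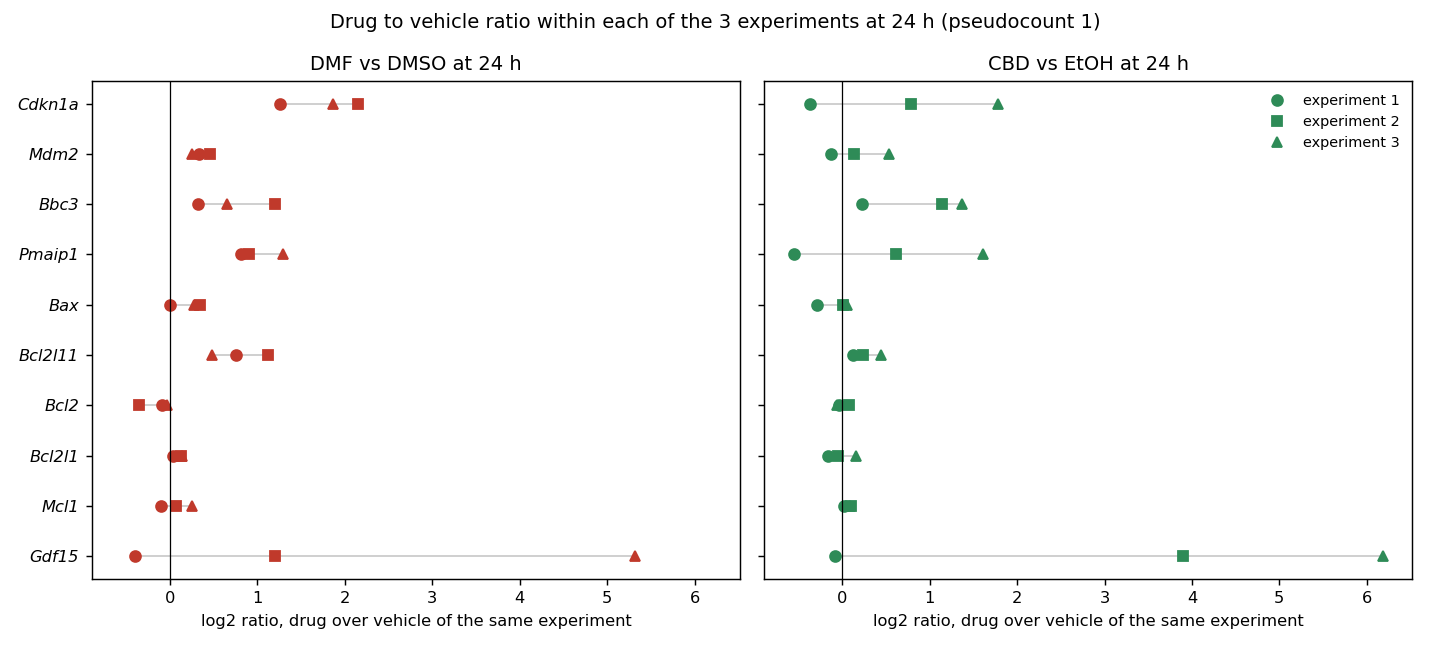
log2 ratio of drug over vehicle within each experiment at 24 h (x axis, pseudocount 1) for the 10 genes, with DMF on the left, CBD on the right and 1 symbol per experiment. With DMF the 3 ratios of *Cdkn1a* lay between 1.26 and 2.15, whereas with CBD they ran from -0.37 in experiment 1 to 1.78 in experiment 3.

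The wider p53 pathway was read from a list of 32 further genes, all of which were tested. This list and those below were chosen with earlier results of these data known. Their counts beside the shares of all genes are therefore a description. With DMF at 24 h 8 of 32 rose and 0 fell, with or without the block, against 1.88% and 5.81% of all genes higher, and the median log2FC of the list was 0.15 against -0.01 over all genes. *Eda2r*, a member of the TNF receptor family, had a log2FC of 1.59 (limma adjusted p = 0.00435), and *Fas*, the death receptor, had 1.81 (0.00736). *Sesn2*, a stress-induced inhibitor of mTORC1 signalling, had 1.09 (0.0244). Without any of the 3 DMSO libraries or the DMF library of experiment 2, only *Eda2r* and *Fas* of the list were called, and with the spread from all 30 libraries 4 were (*Ccng1*, *Eda2r*, *Fas* and *Phlda3*).

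At 4 h with DMF 2 of the 32 rose, *Sesn2* (log2FC 1.501, limma adjusted p = 0.00469) and *Sesn1* (0.41, 0.0377), and with the block 8 rose and 2 fell, against 3.41% and 23% of all genes called; with the spread from all 30 libraries 5 rose and 1 fell. With any library left out, *Sesn2* alone of the list was called. *Eda2r* and *Fas*, the genes with the smallest p at 24 h, had log2FCs of -0.001 and 0.016 at 4 h. Of the 32 genes 18 had a positive log2FC, and the median was 0.051 against 0.002 over all genes. With MMF and CBD 0 of 32 were called at either time, and the medians lay between -0.01 and 0.02. With the block 3 rose with CBD at 4 h, against 2.33% of all genes called, and 0 in the other 3 comparisons. With CBD at 24 h 3 of the list rose without the CBD library of experiment 1, and 3 with the spread from all 30 libraries.

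Of 16 further Bcl2 family genes 10 or 11 were tested against vehicle. Limma without the block called 0 of them with any drug at either time. Once the block was included, 2 were higher and 3 lower for DMF at 4 h, against 23% of all genes called. For MMF at 24 h 2 were higher with the block, against 1.38% of all genes called. With the spread from all 30 libraries 1, *Bcl2l2*, fell with DMF at 4 h.

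Genes of the ATF4 and CHOP stress response were listed as a further stress pathway. Of 10 listed genes 8 were tested. With DMF at 24 h 4 rose, against 1.88% of all genes higher. Among them were *Chac1* (log2FC 1.32, limma adjusted p = 0.002), *Ddit3*, which encodes CHOP (0.99, 0.00603), and *Atf3* (2.25, 0.0197). Without the DMSO library of experiment 1 or 3, or the DMF library of experiment 2, *Chac1* and *Ddit3* were called. With the spread from all 30 libraries 0 of the list were called with DMF at either time. The median of the 8 was 0.93 against -0.01 over all genes. At 4 h with DMF 1 of 8, *Ddit3*, rose (1.15, limma adjusted p = 0.00708), against 3.41% of all genes called. With the block 5 rose, against 23% of all genes called. With CBD the medians were 0.78 at 4 h and 1.18 at 24 h with 0 called, against 0.00705% and 0.114% of all genes. With the block 6 of 8 rose with CBD at 4 h and 0 at 24 h, against 2.33% and 0.504% of all genes called. Without the CBD library of experiment 1, 3 rose at each time.

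**Figure D4:**
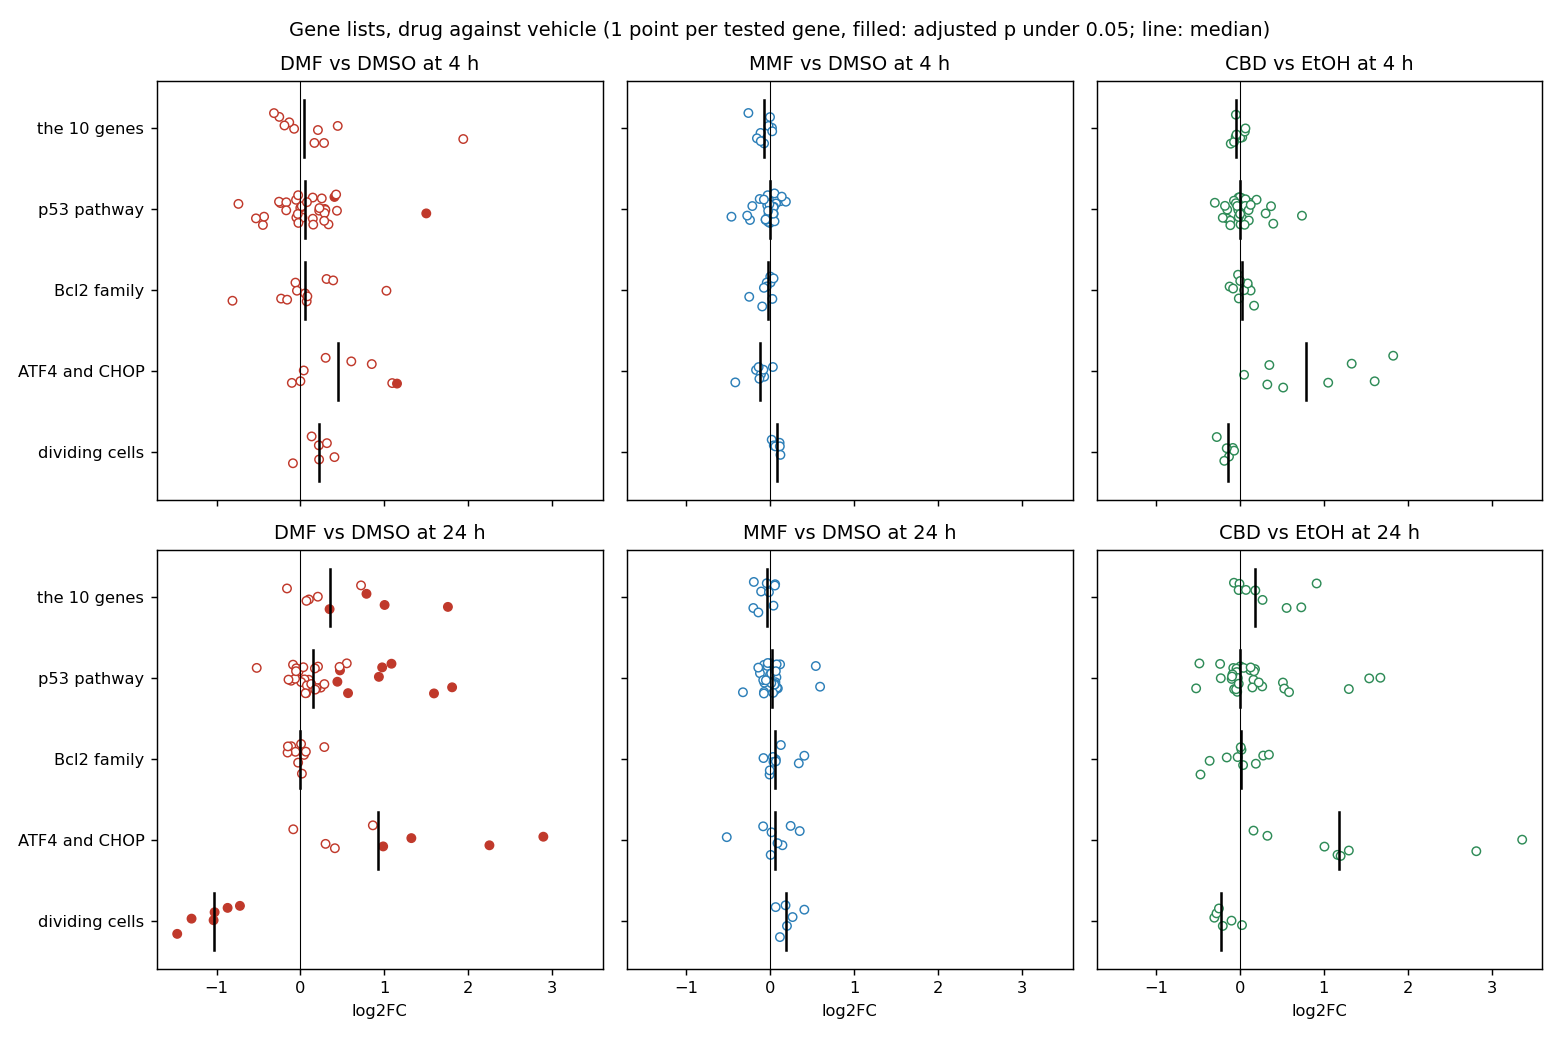
log2FC against vehicle (x axis) for every tested gene of 5 lists (y axis) in the 6 comparisons of drug and vehicle. Filled points mark a limma adjusted p under 0.05 without the replicate block, and a line marks the median. With DMF at 24 h the p53 pathway has 8 filled points to the right of 0, the dividing-cell markers have 6 to the left, and the 10 genes have 4 to the right.

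The pattern of *Cdkn1a* over the 10 groups was followed most closely, of 14930 genes, by those of *Camk2d*, *Tcp11l1* and *Dpp7*, with Pearson r from 0.971 to 0.976 in mean log2 CPM. That of *Gdf15* was followed most closely by *Mideas* (0.972), *Rbms1* (0.965) and *Ano6* (0.963). These correlations are over 10 group means from the same libraries, in which DMF and CBD at 24 h stand apart, and are given as a description.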

How the data were processed

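The values analysed were the deposited signal columns of 13 tables, in which the authors scaled the gene counts of each library by its DESeq2 size factor, computed per pair of groups. Reads had been trimmed with Cutadapt 4.4 and Trimmomatic 0.39, aligned to mRatBN7.2 with HISAT2 2.2.1 and counted with HTSeq 2.0.3; the strand setting is not given in the sources used here. In each library all values were multiples of its smallest step (100% within 0.001), which gave back the reads, between 15108132 and 25367834 per library. Another 6 tables, comparing groups with different vehicles, were not used, nor were the authors' fold changes and p-values in any table.

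Genes were kept by edgeR's filterByExpr on the reads. The tests used limma 3.58.1 (R 4.3.3) with a mean trend on log2(value + 1), two-sided, and the effect of a drug was compared between times over 12 libraries. Alternatives were edgeR 4.0.16, DESeq2 1.42.0, a replicate block, no filter, a pseudocount of 0.1, TMM scaling, the spread of all 30 libraries, and each library left out. The scripts were tested on simulated data. Libraries with the same number deviated together (correlation 0.112 to 0.62 in 13 comparisons, against at most 0.168 for different numbers). The design also names independent experiments, so the numbers were taken as pairs in the fits with the block. The main limma fit left this pairing out. For the genes described here other than *Gdf15*, block values are given where they change a call. For the lists, block values of single genes are not given. Precision rests on 3 libraries per group.

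The 10 genes and the lists were chosen with earlier results of these data known. All 10 are named, and of each list up to 3 genes called per direction with the smallest p. A gene outside these rules was named after its values were seen. One further list of cell death genes is not reported here. Promoter sequences come from RefSeq (GRCr8), in which 8 of the 10 genes were matched and *Bbc3* and *Bax* were not.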

Additional observations from a re-analysis of the deposited data

Results flagged for a closer look

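For *Bcl2l11*, DMF against DMSO had opposite signs at the 2 times. Counts were lower with DMF in each of the 3 experiments at 4 h and higher in each at 24 h. The log2FC at 4 h was not called (limma adjusted p = 0.663, and 0.385 with the replicate block). The difference of the log2FCs was 0.919 (limma adjusted p = 0.0431, the interaction of drug and time in 12 libraries). That difference was called in 3 of 12 fits with a library left out, and it missed the threshold with no filter on low counts.

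For *Pmaip1* the log2FCs also had opposite signs at the 2 times, and the one at 4 h was not called either (limma adjusted p = 0.631). In experiment 3 at 4 h the levels were about equal, 3.93 CPM with DMF and 3.96 CPM with DMSO. The difference was 1.317, and the limma adjusted p of the interaction was 0.0809 and became 0.0235 with the replicate block.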

How the results depend on the processing

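With the replicate block the count of the 10 genes called went from 0 to 7 for DMF against DMSO at 4 h (7 by edgeR with the block), from 0 to 5 for DMF against MMF at 4 h (4 by edgeR with the block), from 3 to 6 at 24 h (6 by edgeR with the block) and from 1 to 3 for the DMF effect at 24 h minus 4 h (3 by edgeR with the block); it changed no other count by more than 1.5 times. DESeq2 called 1, 6 and 3 genes in the last 3 of these comparisons, edgeR without the block 1 in DMF against MMF at 4 h, and testing without a filter 0 for the DMF effect at 24 h minus 4 h; the cause was not tested. With each library left out in turn, 1 to 4 genes were called for DMF against DMSO at 24 h, 1 to 4 for DMF against MMF at 24 h, 1 to 3 for 24 h against 4 h with DMF, 0 to 1 for the DMF effect at 24 h minus 4 h and 0 to 1 for CBD against EtOH at 24 h, where *Gdf15* passed the filter on low counts, and was called, once the low CBD library of experiment 1 was left out. *Gdf15* is among the calls for DMF at 4 h against DMSO with the block and against MMF, where it passed that filter through the DMF libraries alone. Over all genes, the calls ranged with the other tools and settings from 437 to 3274 for DMF against DMSO at 4 h (485 as reported) and from 525 to 1822 at 24 h (554), from 210 to 3347 for DMF against MMF at 4 h (229) and from 477 to 1740 at 24 h (506), from 2083 to 4697 for 24 h against 4 h with DMF (2216), from 471 to 1936 for the DMF effect at 24 h minus 4 h (594), from 12 to 388 for CBD against EtOH at 24 h (16), from 1 to 372 at 4 h (1) and from 0 to 250 for MMF against DMSO at 24 h (1); they reached 258, 122, 205 and 148 for 24 h against 4 h with MMF, CBD, DMSO and EtOH, and 17 for the CBD effect at 24 h minus 4 h (0 as reported for each). Of 435 alternatives for the 30 values of the 10 genes called in limma with or without the block, 337 kept their side of the threshold, 42 lost the call, 56 gained it and 0 turned the sign. Of the other 120 values, 60 had the other sign in some alternative and 0 were called with it. Depth limited *Gdf15*, with 0 to 10 reads in every library outside DMF at 4 h and experiments 2 and 3 of DMF and CBD at 24 h.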
